A study of Mus musculus with 5 samples.

Results

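Shank1, Shank2, Shank3, Dlg2, Dlg4 and Dlgap1 encode scaffold proteins of the excitatory postsynaptic density, and they were followed here through the cell types of the mouse paraventricular hypothalamus (PVH). The 6 genes were taken by symbol from the 31054 features of 5 single-nucleus RNA libraries, and each symbol matched 1 feature. Male mice on a C57BL6 background were used, and the nuclei of 2 to 4 of them were pooled for a library, so animals within a library could not be told apart. In the first experiment, mice carried OT-Cre and Ai9 (Rosa26tm9(CAG-tdTomato)Hze, a Cre-dependent tdTomato reporter). Their mothers had received saline (10 mL/kg, the saline library) or sodium valproate (VPA, 500 mg/kg, the VPA library) on gestation day 12.5, and the PVH was dissected by tdTomato fluorescence at 5 weeks. In the second experiment, mice carried OT-Cre and Rosa26dreaddm3 (stop-hM3), which gives oxytocin neurons a receptor that the compound clozapine N-oxide (CNO) activates. All of them had been exposed to the same VPA dose before birth. On postnatal day 2 they received saline (the hM3 control library) or CNO (CNO replicates 1 and 2), and they were sampled at 5 to 7 weeks. OT-Cre directs the reporter and the receptor to oxytocin neurons, while nuclei of every type in the dissected tissue were sampled. An AAV had also been injected into the PVH and supraoptic regions in the second experiment, and what it carried is not given in the sources used here.

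Shank proteins are large scaffolds that sit deep in the postsynaptic density and reach the actin cytoskeleton through Homer and cortactin. SAPAP proteins, of which Dlgap1 encodes one, tie Shank to the membrane-associated guanylate kinases PSD-95 (Dlg4) and PSD-93 (Dlg2), which in turn hold glutamate receptors and adhesion molecules at the synapse. Variants of several of these genes are known in autism and other neurodevelopmental conditions, and prenatal VPA exposure is a widely used rodent model of that setting.

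The filtered matrices held 4440 to 10904 nuclei per library. Of these, nuclei with at least 1000 UMIs (unique molecular identifiers, each standing for 1 captured RNA molecule) and at most 5% mitochondrial UMIs were used after removal of likely doublets. This left 4115 to 9823 nuclei per library. Libraries stood apart in depth: as deposited, the median UMIs per nucleus were 11068 to 11913 in the saline, hM3 control and CNO replicate 1 libraries, 5451 in the VPA library and 3722.5 in CNO replicate 2. Pairs of libraries shared 4 to 23 nucleus barcodes. Nuclei were grouped by clustering without the 6 genes, and clusters were named from marker genes. Neuron-like nuclei numbered 1891 to 6996 per library and astrocyte-like nuclei 376 to 1575. Nuclei had been sorted with a gate that favours larger nuclei, so numbers of nuclei are not tissue proportions. Levels are given in CPM, the usual scaling of a gene's UMIs to the total UMIs of all nuclei of that class in a library. Where 5 values follow each other they are in library order: saline, VPA and hM3 control, then CNO replicates 1 and 2. A mean ± SD is taken over libraries, across the arms of both experiments.

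All 6 genes were detected in neuron-like nuclei of every library. Shank1 was at 143, 136, 141, 144 and 127 CPM in library order. Shank2 was at 233, 220, 248, 234 and 198 CPM, and Shank3 at 98.8, 86.4, 94.5, 107 and 95.5 CPM. Dlg2 was at 4553, 4875, 4819, 4124 and 3884 CPM, and its close relative Dlg4 at 129, 112, 111, 116 and 84.3 CPM. Dlgap1 was at 1527, 1311, 1396, 1513 and 1587 CPM. CNO replicate 2 was the lowest of the 5 libraries for Shank1, Shank2, Dlg2 and Dlg4. Over all deposited nuclei it also had the lowest median UMIs, but among neuron-like nuclei its median was 9276 UMIs, above the 6120 of the VPA library. The part of depth in these levels was not tested.

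The genes differ greatly in length, and nuclear RNA holds unspliced transcripts, so CPM values do not rank these genes against each other. Their levels were compared per kilobase. In GENCODE vM21 (GRCm38, the mm10 assembly) all lie on the plus strand. Dlg2 spans 1973 kb of chromosome 7 (90476672 to 92449247), Dlgap1 spans 852 kb of chromosome 17 (69969073 to 70821413) and Shank2 spans 423 kb of chromosome 7 (144001928 to 144424494). The others are compact: Shank3 covers 60.6 kb of chromosome 15 (89499623 to 89560261), Shank1 50.3 kb of chromosome 7 (44310253 to 44360572) and Dlg4 30.6 kb of chromosome 11 (70016942 to 70047522). Per kilobase of gene span, neuron-like nuclei held 3.61 ± 0.535 CPM of Dlg4, 2.75 ± 0.136 of Shank1, 2.26 ± 0.220 of Dlg2, 1.72 ± 0.130 of Dlgap1, 1.59 ± 0.122 of Shank3 and 0.537 ± 0.0448 of Shank2 (SD, n = 5 libraries). Per kilobase of exon the order was different, from 273 ± 26.7 CPM for Dlg2 and 82.0 ± 6.21 for Dlgap1 to 8.33 ± 1.23 for Dlg4. The wide gap between Dlg2 and Dlg4 in CPM was thus absent per kilobase of span. Whether intronic reads were counted, and whether counting used strand, is not given in the sources used here.

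Other genes overlap 5 of the 6, and with counting of unknown strandedness reads could be split between them. Gm14372, antisense within Shank2, was at 25.7 CPM in neuron-like nuclei. Gm45159, on the same strand within Dlg2, was at 63.1 CPM, and the antisense 4930567K12Rik was at 25.0 CPM. The genes overlapping Shank1, Shank3 and Dlgap1 were at 16.4 CPM (1700008O03Rik), 1.88 CPM (Gm15609) and 6.49 CPM (5031415H12Rik). No annotated gene overlaps Dlg4.

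**Figure D1:**
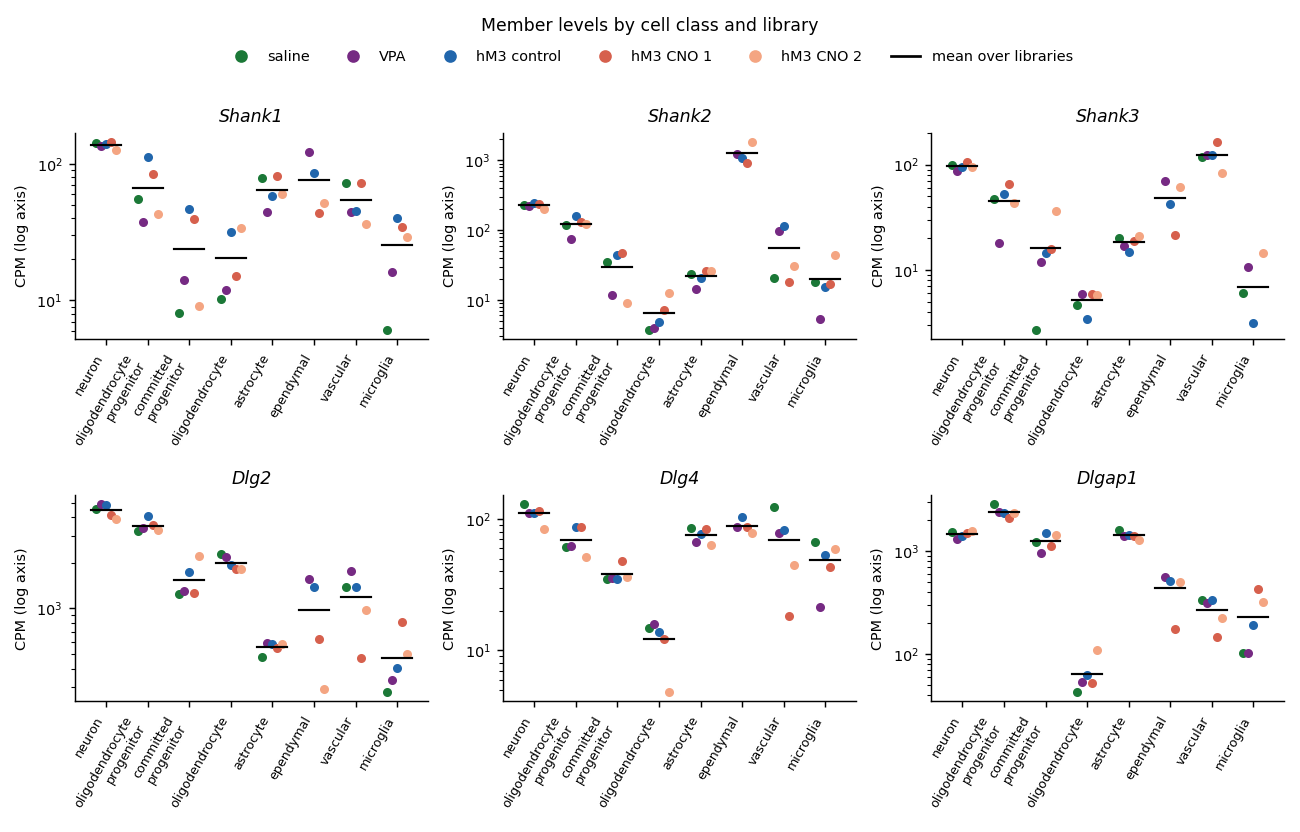
Level of each gene (CPM, log axis) in each cell class, 1 point per library and a bar at the mean over libraries; values of 0 cannot be drawn on the log axis, as for Shank3 in microglia-like nuclei of CNO replicate 1. Dlgap1 in astrocyte-like nuclei overlaps its neuronal values, Shank3 in vascular-like nuclei overlaps neurons, and Shank2 is highest in ependymal-like nuclei.

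Neuron-like nuclei were set against astrocyte-like nuclei to see which scaffolds are neuronal in this tissue. Shank2, Dlg2 and Shank3 were far higher in neurons, Shank1 and Dlg4 moderately higher, and Dlgap1 did not differ past the threshold. Shank2 was at 14.3 to 26.1 CPM in astrocyte-like nuclei of the 5 libraries, 10.5-fold below neurons (log2 difference 3.39, SE 0.23, edgeR quasi-likelihood test with Benjamini-Hochberg adjustment over all genes, adjusted p = 3.04e-17). Dlg2 was at 481 to 590 CPM and 7.88-fold below neurons (log2 2.98, SE 0.30, edgeR adjusted p = 6.44e-12). Shank3 was at 14.9 to 21.2 CPM, 5.22-fold below. For these genes the libraries of the compared classes did not overlap. Shank1 was at 44.6 to 81.0 CPM, 2.17-fold below (log2 1.12, SE 0.18, edgeR adjusted p = 3.96e-07), and Dlg4 at 64.0 to 85.9 CPM, 1.44-fold below (log2 0.53, SE 0.12, edgeR adjusted p = 1.12e-04). The lowest neuronal value of Dlg4, 84.3 CPM in CNO replicate 2, lay inside the astrocyte range, but within each library neurons were higher. Of the 6 genes 5 were higher in neurons and 0 lower, where 31.0% of the 12594 genes tested were higher and 37.2% lower.

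Dlgap1 stood at 1598, 1405, 1439, 1397 and 1280 CPM in astrocyte-like nuclei, in library order, against 1311 to 1587 in neurons. The log2 difference was 0.02 with SE 0.25 (edgeR adjusted p = 0.948), and the classes overlapped. Free RNA from broken neurons gives some neuronal UMIs in every droplet. As a yardstick, the 6 neuron markers Snap25, Syt1, Rbfox3, Syp, Stmn2 and Celf4 had mean levels in astrocyte-like nuclei of 3.85% to 29.2% of those in neurons. Dlgap1 was at 97.6%, Dlg4 at 68.8% ± 6.16 and Shank1 at 46.5% ± 9.79 of the neuron level (SD, n = 5), with 80.6% to 107% over libraries for Dlgap1, above all of these markers. Shank3 at 19.1%, Dlg2 at 12.6% and Shank2 at 9.72% were inside the marker range, so these data do not show them in astrocytes above background. Shank1 was not even within the class. In the larger astrocyte-like cluster, led by Nhsl1, Itih3 and Etnppl, it was at 33.5 CPM, and in the astrocyte-like cluster led by Apoe and Cst3 at 106 CPM, with 65.3 to 429 CPM by library in the latter. The Apoe-led cluster drew 1421 of its 1997 nuclei from CNO replicate 2 and 49 and 29 from the saline and VPA libraries. The larger cluster held 154 nuclei of CNO replicate 2. In each library Shank1 was higher in the Apoe-led cluster. Dlgap1 differed little between those clusters, with 1265 to 1603 CPM over all libraries of both.

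In oligodendrocyte-like nuclei Dlg2 stood out. Its level was 2283, 2198, 1933, 1814 and 1810 CPM in library order, 45.2% of the neuron level, while the neuron markers were at 3.73% to 20.9%. Every library was below every neuronal value, a 2.00-fold difference (log2 1.00, SE 0.28, edgeR adjusted p = 0.00164). The others were nearly absent from this myelinating class: Shank2 at 3.71 to 12.5 CPM was 31.6-fold below neurons, Dlgap1 at 42.7 to 110 CPM was 21.1-fold below, and Shank3 at 3.43 to 5.94 CPM was 16.9-fold below. Dlg4 was 8.16-fold and Shank1 6.46-fold below. All 6 genes were higher in neurons, where 33.6% of the genes tested were higher and 33.8% lower.

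Oligodendrocyte progenitor cells receive glutamatergic synapses in the brain. In nuclei like these Dlgap1 was at 2849, 2396, 2361, 2098 and 2331 CPM in library order, all above every neuronal value. The difference was 1.68-fold (log2 -0.75, SE 0.25, edgeR adjusted p = 0.0150). This call did not hold without the saline, VPA or hM3 control library, where the log2 difference was -0.67 to -0.73 and the edgeR adjusted p 0.0566 to 0.0765. Dlg2 at 3251 to 4057 CPM did not differ from neurons past the threshold (log2 0.31, SE 0.28, edgeR adjusted p = 0.414). Shank3, Shank1, Shank2 and Dlg4 were 2.07-fold, 2.02-fold, 1.86-fold and 1.53-fold lower in progenitors. The counts were 4 higher and 1 lower in neurons, where 18.2% of the genes tested were higher and 18.1% lower. Neuron markers in the progenitor-like nuclei were at 26.7% to 48.4% of the neuron level, and their summed level ran from 587 to 2049 CPM over libraries, against 4299 to 4604 in neurons. Shank1 and Shank3, at 47.7% and 46.2% of the neuron level, lay inside that marker range. Dlgap1 at 165%, Dlg2 at 79.2% and Dlg4 at 63.5% lay above it. Shank2 at 53.0% was above it as a mean over libraries, but at 34.3% in the VPA library it was below Snap25 (41.6%), and at 55.6% in CNO replicate 1 below Syp (69.2%). Committed progenitor-like nuclei, with 16 to 102 nuclei per library, kept Dlgap1 at 950 to 1490 CPM and Dlg2 at 1246 to 2208 CPM. The Dlgap1 values lie between those of progenitors and oligodendrocytes, and the Dlg2 values overlap those of oligodendrocytes.

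In microglia-like nuclei all 6 genes were below neurons, where 29.2% of the genes tested were higher in neurons and 25.5% lower. Shank3 was at 0.00 to 14.7 CPM and 20.9-fold below neurons (log2 4.38, SE 0.40, edgeR adjusted p = 1.51e-12), on 0 to 2 UMIs per library. With so few UMIs the size of this fold is uncertain. Dlg4, at 21.5 to 66.9 CPM on 4 to 17 UMIs, differed least, by 3.10-fold.

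In vascular-like nuclei 5 of the genes passed the threshold as lower than in neurons, but Shank3 did not. Shank3 was at 119, 123, 124, 164 and 83.7 CPM in library order, on 23, 25, 36, 9 and 58 UMIs. The vascular value was above the neuronal value in every library but CNO replicate 2. The fit with TMM (the trimmed mean of M values, the usual normalization in edgeR) put the log2 difference, neurons minus vascular, at 0.10 with SE 0.18 (edgeR adjusted p = 0.655). This sign is opposite to that of the CPM values. Scaling to total UMIs alone gave -0.23, again not called. Within the class the UMIs came from the cluster led by the endothelial genes Flt1 and Slco1a4, at 158 CPM with 109 to 274 by library. The other vascular-like clusters, led by Slc47a1 and Bnc2 and by Cped1 and Colec12, were at 29.0 and 45.6 CPM. The neuron markers in vascular-like nuclei were at 17.1% to 42.5% of the neuron level and Shank3 at 127%. Shank2, Dlg2, Dlgap1, Shank1 and Dlg4 were 4.99-fold, 4.72-fold, 6.71-fold, 3.67-fold and 1.87-fold lower than in neurons. Dlg4 was uneven, at 124, 79.0, 82.7, 18.2 and 44.7 CPM in library order on 1 to 31 UMIs. Its mean, 62.0% of the neuron level with 15.7% to 95.9% over libraries, lay above the marker range of means. It was at 36.8 CPM in the Flt1-led cluster and at 106 and 108 CPM in the Slc47a1-led and Cped1-led clusters. The counts were 5 higher in neurons and 0 lower, where 26.7% of the genes tested were higher and 29.2% lower. Scaling to total UMIs alone, without TMM, moved the median of all genes to -0.31 here and to -0.28 against microglia-like nuclei. The share of all calls that were higher in neurons then went from 47.8% to 32.8% and from 53.4% to 39.0%, and against oligodendrocyte-like nuclei the median moved to 0.13. The calls of the 6 genes in these 3 comparisons were the same under both scalings.

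Ependymal-like nuclei line the ventricle and were few, with 8 to 36 nuclei per library, so they are described without a test. The VPA library had 1232 CPM of Shank2, the hM3 control 1082 CPM and CNO replicates 1 and 2 had 911 and 1824 CPM, on 42 to 210 UMIs. The saline library, with 8 nuclei, held 41 Shank2 UMIs, or 1728 CPM. All of these lie above the highest neuronal value of 248 CPM. Over the libraries with at least 10 nuclei the level was 576% ± 241 of the neuron level (SD, n = 4), where the neuron markers were at 22.2% to 63.2%. In nuclei thinned to 2000 UMIs each, 84.5% ± 15.5 of ependymal-like nuclei had a Shank2 UMI, against 33.8% in neurons. Shank1 and Shank3 did not share this pattern, at 43.4 to 122 and 21.7 to 69.4 CPM over the same libraries. An unnamed cluster led by Gmnc and Ttr, found in the saline library alone, held Shank2 at 783 CPM.

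The fixed lists of other postsynaptic genes show which of these class differences were general. The Dlgap relatives Dlgap2, Dlgap3 and Dlgap4 were all higher in neurons than in astrocyte-like and in oligodendrocyte-like nuclei, with Dlgap2 34.5-fold and 30.1-fold higher. Dlgap1 was the family member whose difference between neurons and astrocytes did not pass the threshold. Of 21 partners and signalling proteins of the excitatory postsynaptic density, 14 were higher in neurons than in astrocyte-like nuclei and 4 lower. Among the highest was the glutamate receptor-binding protein Grip2 (23.6-fold), and among the lowest the dynein light chain Dynll1 (3.34-fold lower). Against oligodendrocyte-like nuclei 14 were higher and 5 lower, with Grip1 28.5-fold and Kalrn 23.3-fold higher. Against progenitor-like nuclei 13 were higher and 2 lower, led by the kinase subunit Camk2a (3.63-fold), Grip2 (3.41-fold) and Synpo (2.54-fold). Against microglia-like nuclei 15 were higher and 3 lower, with Grip1 16.4-fold higher, and the actin regulator Abi1 2.39-fold and Sharpin 2.27-fold lower. The Dlgap relative Dlgap3 was 19.4-fold higher there. Against vascular-like nuclei 14 were higher and 3 lower, with Grip2 10.3-fold, Cnksr2 6.76-fold and Lrrc7 6.62-fold higher, and Dynll1 5.44-fold and Synpo 2.09-fold lower.

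Homer3, one of the adaptors that bind Shank, ran the other way. It was lower in neurons than in astrocyte-like (21.6-fold), oligodendrocyte-like (15.4-fold), progenitor-like (5.50-fold), microglia-like (8.88-fold) and vascular-like nuclei (log2 -3.91), while Homer1 and Homer2 were higher in neurons in 4 of those 5 comparisons. Of the MAGUK relatives Dlg1, Dlg3, Magi1, Magi2 and Magi3, 1 was higher in neurons than in astrocyte-like nuclei and 0 lower, and Dlg1 was 3.88-fold lower in neurons than in oligodendrocyte-like nuclei. Of the inhibitory scaffold genes tested, Insyn2a was lower in neurons than in astrocyte-like (4.73-fold), oligodendrocyte-like (5.59-fold) and progenitor-like nuclei (4.25-fold). Insyn2b was 19.5-fold higher in neurons than in astrocyte-like nuclei but 2.09-fold lower than in progenitor-like nuclei. The median log2 difference from astrocytes was 1.75 for the 6 genes, 0.62 for the 36 other listed genes tested and -0.09 for all genes. From oligodendrocytes these medians were 3.56, 1.56 and -0.03. All these calls are from the same edgeR fits at an adjusted p below 0.05.

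**Figure D2:**
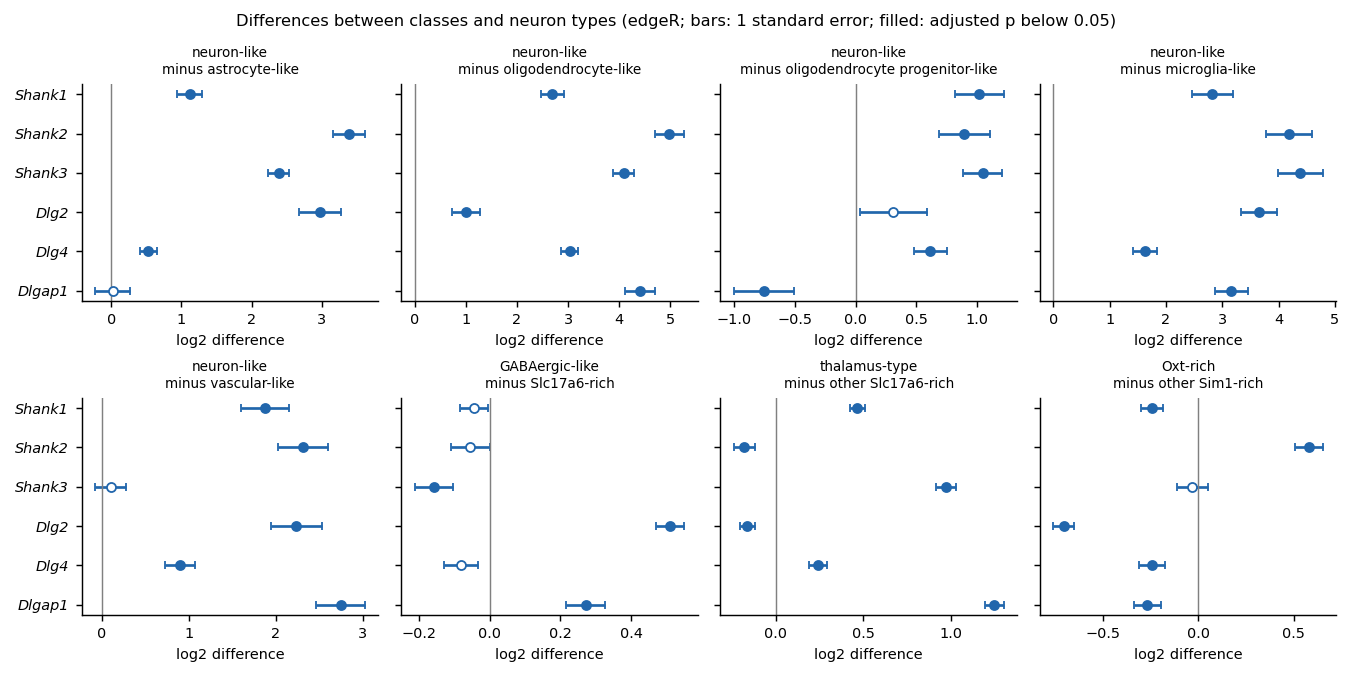
Log2 difference of each gene in the 5 class comparisons and the 3 neuron type comparisons, with bars of 1 standard error from the edgeR fits over 5 libraries; filled points passed an adjusted p below 0.05 and open points did not. The class differences reach 4.98 (Shank2, oligodendrocyte-like) and the neuron type differences stay between -0.71 (Dlg2, Oxt-rich) and 1.25 (Dlgap1, thalamus-type).

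The make-up of the Shank family needs no library total. In neuron-like nuclei Shank2 supplied 49.1% ± 1.61 of the summed Shank UMIs and Shank3 20.9% ± 1.43 (SD, n = 5). Shank1 supplied the rest, 29.1% to 30.8% over libraries. In astrocyte-like nuclei the largest share was that of Shank1, 61.2% ± 3.62. In oligodendrocyte-like nuclei it was again that of Shank1, at 61.4% with 53.3% to 79.3% over libraries, where Shank2 rests on as few as 4 UMIs. In vascular-like nuclei that of Shank3, 53.3% ± 8.25, and in ependymal-like nuclei that of Shank2, 90.9% ± 3.54 (n = 4). The progenitor-like make-up, with 53.0% Shank2, 27.9% Shank1 and 19.2% Shank3, was near the neuronal one. Dlg4 supplied 2.42% ± 0.300 of the summed Dlg2 and Dlg4 UMIs in neurons and 12.1% ± 2.21 in astrocyte-like nuclei. These shares follow UMIs and so favour longer genes, but a gene's length is the same in every class.

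With each nucleus thinned to 2000 UMIs, 98.9% of neuron-like nuclei had a Dlg2 UMI, 80.3% to 86.1% by library a Dlgap1 UMI, 33.8% a Shank2 UMI, 24.2% a Shank1 UMI, 19.7% a Dlg4 UMI and 17.3% a Shank3 UMI. Without thinning these shares were 99.8%, 96.6%, 82.7%, 75.7%, 68.9% and 62.7%, so the shares follow the depth closely. Oligodendrocyte-like nuclei served as the background class for the genes nearly absent there. At the same thinned depth 3.95% of them had a Shank1 UMI, 1.22% a Shank2 UMI, 1.02% a Shank3 UMI and 2.69% a Dlg4 UMI. A Dlgap1 UMI was found in 90.0% of astrocyte-like and 11.5% of oligodendrocyte-like nuclei, and a Dlg2 UMI in 54.7% and 95.5%.

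Neuron-like nuclei were then divided into types by marker genes. GABAergic-like neurons (647 to 4169 nuclei per library) carried Gad1, Gad2 and Slc32a1. Sim1 marks the developing and adult PVH, and among Sim1-rich neurons an Oxt-rich type (34 to 270 nuclei) was set apart from other Sim1-rich neurons (239 to 1709 nuclei). Oxt itself was at 363 to 661 CPM over libraries in the Oxt-rich type and at 1.84 to 32.4 CPM in the other types. Thalamus-type neurons (192 to 464 nuclei) held Tcf7l2 at 628 CPM, Synpo2 at 711 CPM, Lef1 at 240 CPM, Plekhg1 at 508 CPM and Prkcd at 78.3 CPM, whereas Gbx2 from the same list was at 0.7 CPM. Other Slc17a6-rich neurons, glutamatergic by their vesicular transporter, numbered 146 to 478.

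**Figure D3:**
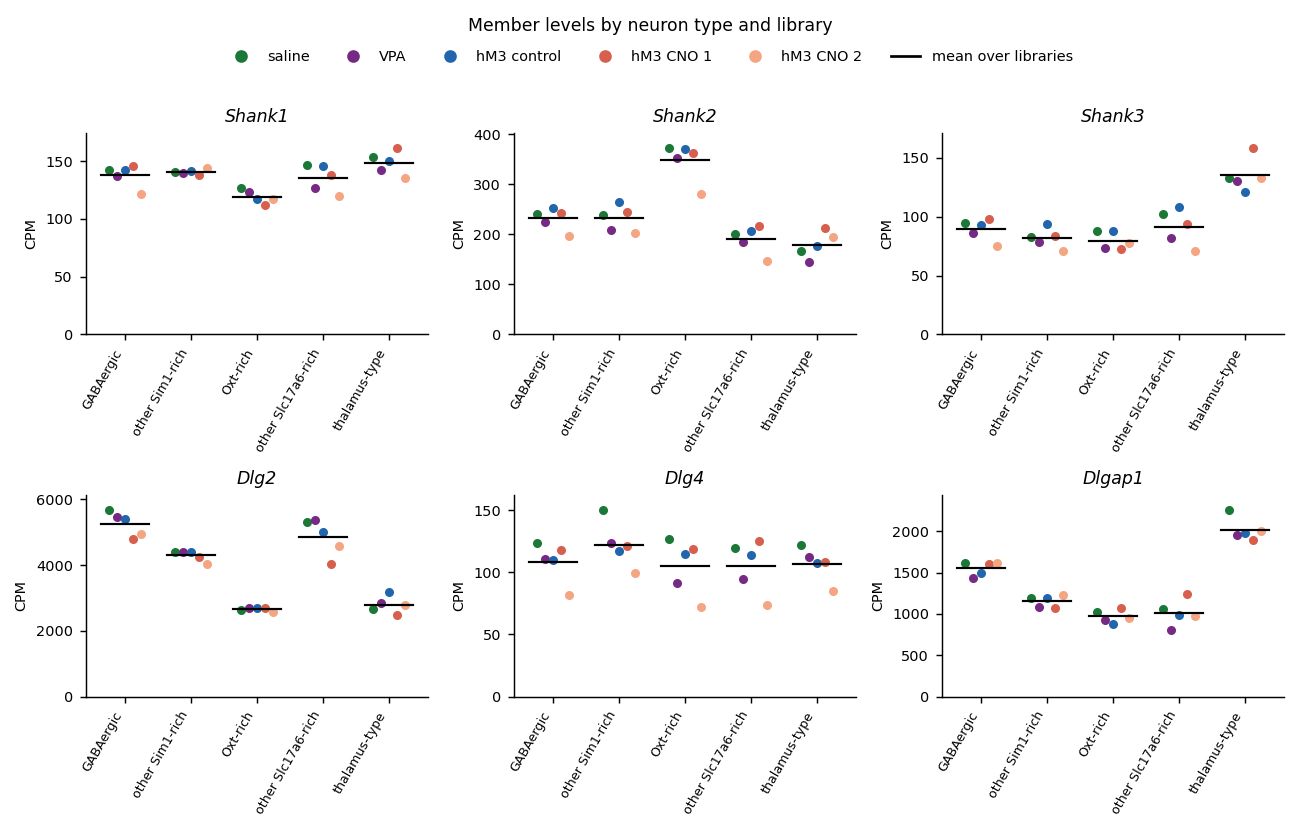
Level of each gene (CPM, linear axis from 0) in the 5 neuron types, 1 point per library and a bar at the mean over the 5 libraries. Thalamus-type neurons stand out in Dlgap1 and Shank3, Oxt-rich neurons in Shank2, and Dlg2 is low in both.

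Thalamus-type neurons were set against the other Slc17a6-rich types, taken as the equal-weight mean of Oxt-rich, other Sim1-rich and other Slc17a6-rich neurons. Dlgap1 was at 2259, 1954, 1984, 1897 and 2003 CPM in library order, above every value of the other types (at most 1620 CPM, in GABAergic-like neurons). It was 2.38-fold higher than in the other Slc17a6-rich types (log2 1.25, SE 0.05, edgeR adjusted p = 5.30e-16). Shank3 was at 133, 131, 121, 159 and 133 CPM, again above every other type, whose highest value was 108 CPM. The difference was 1.96-fold (log2 0.97, SE 0.06, edgeR adjusted p = 2.09e-13). Shank1 was 1.38-fold higher (log2 0.47, SE 0.04, edgeR adjusted p = 1.31e-09), although its CPM ranges overlapped, at 135 to 162 against 112 to 146. Dlg4 was 1.18-fold higher (edgeR adjusted p = 3.04e-04), and Dlg2 and Shank2 were 1.12-fold and 1.13-fold lower (edgeR adjusted p = 0.00326 and 0.0147).

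The last 3 differences are small under TMM, and none was called without the library as a block (edgeR adjusted p = 0.189, 0.162 and 0.126 for Dlg4, Dlg2 and Shank2). Shank2 was not called without the saline, VPA or hM3 control library either (edgeR adjusted p = 0.0855 to 0.118). TMM put the median of all genes at -0.01 in this comparison, while scaling to total UMIs alone put it at -0.30, with 12.7% of genes higher and 57.4% lower. Under total scaling Dlg4 was at log2 -0.05 (edgeR adjusted p = 0.391), while Dlg2 was at -0.45 and Shank2 at -0.47, further below the other types than under TMM. Dlgap1, Shank3 and Shank1 were then at 0.96, 0.68 and 0.17. Under TMM, 4 of the 6 genes were higher and 2 lower, where 26.4% of the 14932 genes tested were higher and 25.4% lower. Dlgap1, Shank3 and Shank1 were called higher under both scalings, and in every other alternative tried. The listed genes went both ways: 17 of 36 were higher and 10 lower under TMM, but 7 higher and 20 lower under total scaling. Under TMM the densin gene Lrrc7 (3.14-fold), Homer2 (2.44-fold) and Camk2a (2.28-fold) were highest, and Baiap2 (3.28-fold), Insyn2b (3.06-fold) and Dlgap2 (2.36-fold) were lowest. Dlgap1 and Dlgap2 thus differed in opposite directions in these neurons.

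Oxt-rich neurons were set against other Sim1-rich neurons, their nearest relatives in the PVH. Shank2 was at 373, 353, 372, 362 and 280 CPM in Oxt-rich neurons, and at 238, 210, 265, 245 and 202 CPM in other Sim1-rich neurons. The types did not overlap, and Shank2 was 1.49-fold higher in Oxt-rich neurons (log2 0.58, SE 0.07, edgeR adjusted p = 1.81e-06). Dlg2 was at 2584 to 2703 CPM against 4022 to 4409 CPM, 1.63-fold lower in Oxt-rich neurons (log2 -0.71, SE 0.05, edgeR adjusted p = 5.36e-10). Dlgap1 was lower by log2 -0.27 (SE 0.07), and Shank1 and Dlg4 1.18-fold lower each. Shank3 did not pass the threshold (log2 -0.03, SE 0.08, edgeR adjusted p = 0.868). The counts were 1 higher and 4 lower, where 9.91% of the genes tested were higher and 9.34% lower. Of the 36 other listed genes, 1 was higher (the actin-binding Shank partner Cttn, cortactin, 1.22-fold) and 15 lower, with Dlgap2 (1.73-fold), Cnksr2 (1.72-fold) and Magi1 (1.57-fold) the lowest. The count of higher listed genes changed in some alternatives, and fewer were lower without the library as a block.

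The Oxt-rich type held 2 sub-clusters that differed in Shank2. The sub-cluster led by Esr2 and Foxp2 had 437 CPM of Shank2, and its mean Oxt level was 217 CPM. This Shank2 level was the highest of the 54 neuron sub-clusters with at least 50 nuclei. The sub-cluster led by Oxt and Adamts12, with Oxt at 854 CPM, had 225 CPM of Shank2. When only the latter was taken as Oxt-rich, an alternative chosen after seeing the data, Shank2 was at log2 -0.09 against other Sim1-rich neurons (edgeR adjusted p = 0.537). The higher Shank2 of the type was thus found in the Esr2-led sub-cluster and not in the one richest in Oxt. Without the library as a block, 1 of the 4 lower calls held (Dlg2), with edgeR adjusted p of 0.102, 0.0980 and 0.567 for Shank1, Dlgap1 and Dlg4. The Dlg4 call was lost without the saline library, the VPA library or CNO replicate 2 (edgeR adjusted p = 0.0571 to 0.109), and the Dlgap1 call without the hM3 control library or CNO replicate 2 (0.0962 and 0.0615).

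GABAergic-like neurons were set against the equal-weight mean of the 4 Slc17a6-rich types. Dlg2 was at 5677, 5473, 5400, 4785 and 4947 CPM in GABAergic-like neurons, in library order. In each library this was above all 4 Slc17a6-rich types, of which other Slc17a6-rich neurons came nearest at 4024 to 5382 CPM. The difference was 1.42-fold (log2 0.51, SE 0.04, edgeR adjusted p = 6.69e-10). Dlgap1 was 1.21-fold higher (log2 0.27, SE 0.05, edgeR adjusted p = 4.70e-04), between thalamus-type neurons and the rest. Shank3 was 1.12-fold lower (log2 -0.16, SE 0.05, edgeR adjusted p = 0.0340), a call that was lost in 8 of the alternatives, including without the block (edgeR adjusted p = 0.420), with total scaling (0.215) and without the saline, VPA or hM3 control library or CNO replicate 2 (0.0514 to 0.0944). Shank1, Shank2 and Dlg4 did not pass the threshold, with log2 -0.04, -0.06 and -0.08 and SE 0.04 to 0.06, and Shank1 and Shank2 turned to 0.02 and 0.0094 under total scaling. The counts were 2 higher and 1 lower, where 12.4% of the genes tested were higher and 12.5% lower. Under total scaling 70.7% of all calls were higher against 49.7% under TMM, and the median of all genes was at 0.07.

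Among the listed genes 11 of 36 were higher in GABAergic-like neurons and 7 lower. Insyn2b, an inhibitory-synapse gene, was 1.60-fold higher, the Rap GTPase-activating protein gene Sipa1l1 1.43-fold and Grip2 1.43-fold. Homer2 was 1.47-fold, Dlgap3 1.41-fold and Magi3 1.32-fold lower. The other 4 of the 5 inhibitory scaffold genes did not pass the threshold. Without the library as a block fewer listed genes were lower. Calls over all genes then fell from 1849 higher and 1868 lower to 728 and 746.

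**Figure D4:**
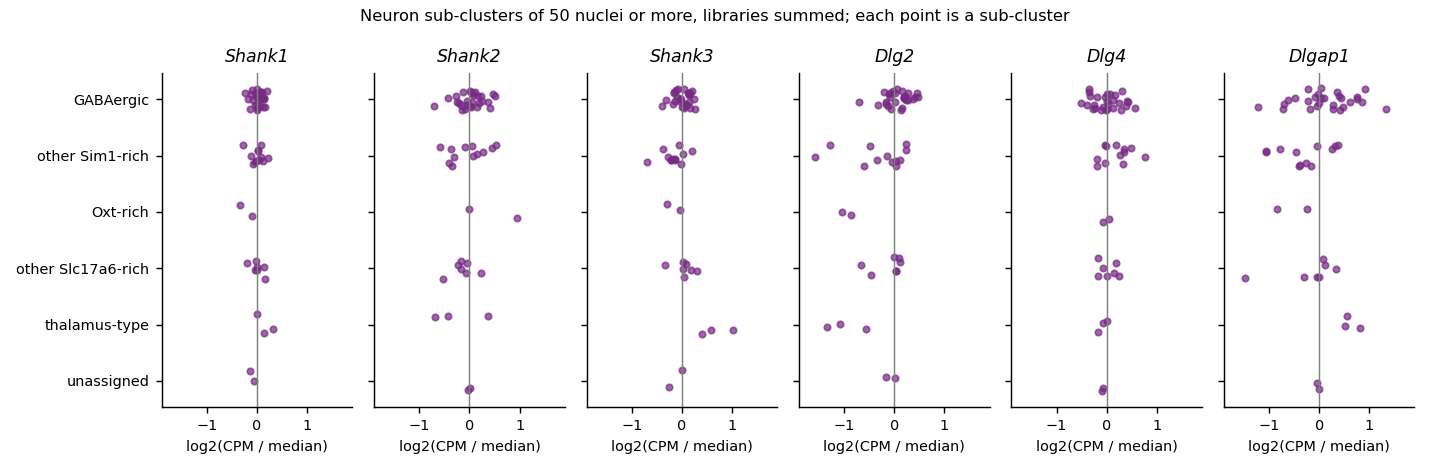
Log2 ratio of each gene's CPM to its median over the 54 neuron sub-clusters with at least 50 nuclei, counts of all libraries summed. Each point is a sub-cluster, and rows are neuron types, with unassigned sub-clusters in a row of their own. Shank1 keeps to 108 to 173 CPM, while Dlgap1 runs from 470 to 3292 CPM.

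The 54 neuron sub-clusters with at least 50 nuclei, counts of all libraries summed, show how evenly each scaffold is spread. Shank1 was the most even of the 6, with 1.59-fold between the lowest and the highest sub-cluster and a coefficient of variation of 8.63%. Of the 6671 genes with a mean of at least 20 CPM over the sub-clusters, 1.48% had a lower coefficient of variation. Dlgap1 was the least even, with 7.00-fold between extremes and a coefficient of variation of 38.9%, and 83.9% of genes had a lower one. It was lowest, at 470 CPM, in other Slc17a6-rich neurons led by Samd3, Trp73 and Corin, and highest, at 3292 CPM, in GABAergic-like neurons led by Eepd1 and Pvalb. The other 4 lay between 18.8% (Dlg4) and 26.7% (Dlg2).

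The sub-cluster of other Sim1-rich neurons led by Avp, the vasopressin gene, had the lowest level of both Dlg2 (1682 CPM) and Shank3 (55.2 CPM). Among the high Dlg2 levels was that of the GABAergic-like sub-cluster led by Cyp19a1 and Qrfpr (6962 CPM). Shank3 and Shank1 were both highest in the thalamus-type sub-cluster led by Abhd12b and Prkcd, at 181 and 173 CPM. Dlg4 was highest, at 189 CPM, in other Sim1-rich neurons led by Agtr1a, where Dlg2 was low at 2076 CPM. Shank2 was among the lowest in GABAergic-like neurons led by Prdm16, at 137 CPM (108 to 173) on 74 UMIs, and in thalamus-type neurons led by Adgrg6, at 139.7 CPM on 1785 UMIs. After the Esr2-led Oxt-rich sub-cluster it was among the highest in other Sim1-rich neurons led by Sim2 (327 CPM). By counting intervals the lowest Shank3 and the highest Shank1 and Dlg4 values overlap the next sub-cluster. Sub-clusters also draw different shares of their nuclei from each library, and their part in these ranks was not tested.

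Across these sub-clusters the 6 genes varied largely apart from each other. The highest Pearson correlation of log2(CPM + 1) between any 2 of them was 0.40 (Shank1 and Shank3), followed by 0.33 (Shank1 and Dlgap1), and the lowest was -0.23 (Dlg2 and Dlg4). These are descriptions over 54 points that share libraries and normalization. The genes most like each one were, for Shank3, Raver2 (0.74), Rims1 (0.74) and Amotl1 (0.73), and for Dlg4, Odf2 (0.78), Ltbp4 (0.77) and Hnrnpk (0.76). Dlgap1 had Celf2 (0.60), Atp2b1 (0.57) and Kirrel3 (0.56), and Shank1 had Pnisr (0.50), St3gal4 (0.49) and Fam160b2 (0.49). For Dlg2 the nearest were Gm45159 (0.93), 4930567K12Rik (0.80) and Cacna1i (0.78), and for Shank2 Gm14372 (0.75), Sergef (0.58) and Thsd7b (0.52). Gm45159, 4930567K12Rik and Gm14372 are the transcripts that lie within Dlg2 or Shank2 themselves.

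**Figure D5:**
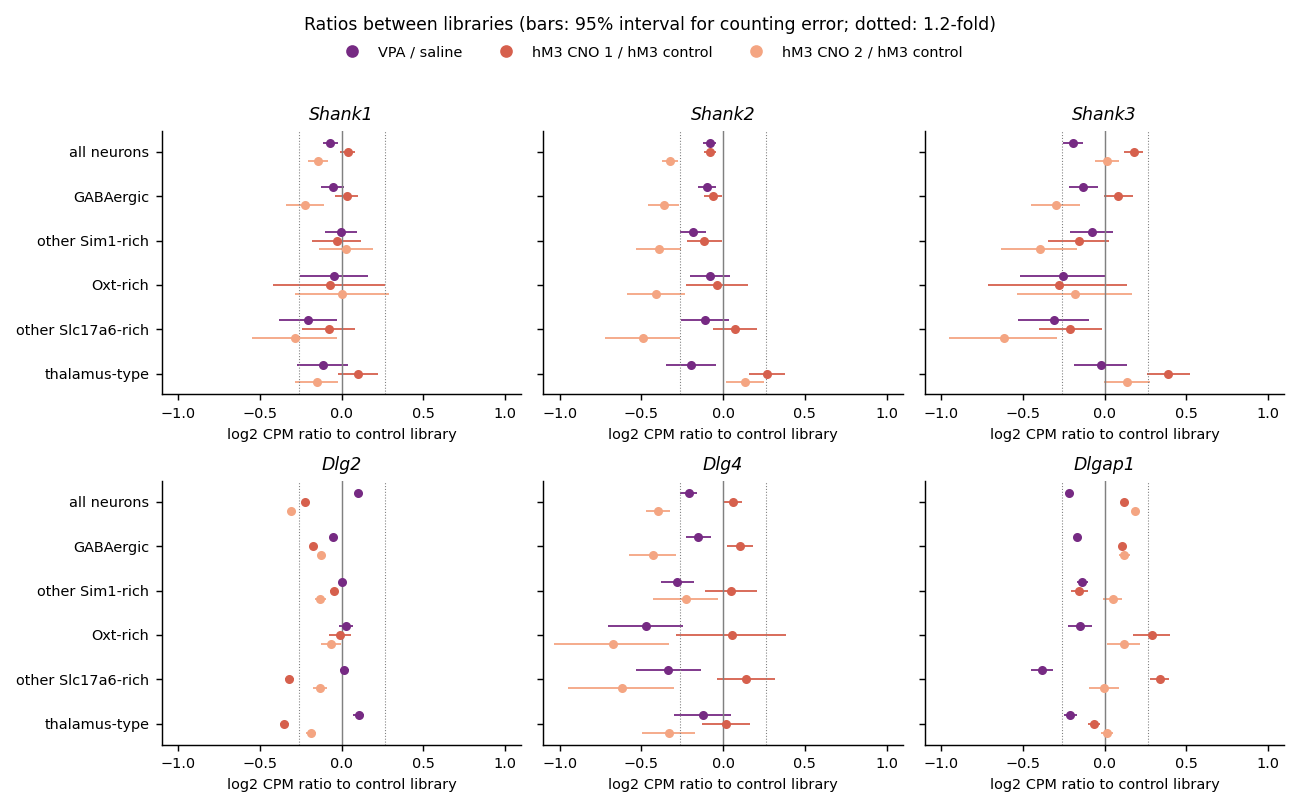
Log2 ratio of CPM of each gene in neuron-like nuclei and in the 5 neuron types, for the VPA library against the saline library and for each CNO library against the hM3 control, with exact 95% intervals for counting error only. Dlg4 lies below 0 in the VPA library and in CNO replicate 2, and no gene is 1.2-fold or more away in the same direction in both CNO libraries in neuron-like nuclei.

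The VPA contrast compares 1 library with 1 library, so it has no replicate check and no test was made. Intervals are exact 95% intervals for counting error and carry no variation between animals or preparations. In neuron-like nuclei 5 of the 6 genes had lower CPM in the VPA library than in the saline library. The log2 ratios were -0.22 (-0.24 to -0.20) for Dlgap1, -0.21 (-0.26 to -0.16) for Dlg4, -0.19 (-0.25 to -0.13) for Shank3, -0.08 (-0.12 to -0.05) for Shank2 and -0.07 (-0.12 to -0.02) for Shank1. Dlg2 was at 0.10 (0.09 to 0.11). Thalamus-type neurons, the type highest in Dlgap1 and Shank3, were 11.7% of saline and 4.17% of VPA neurons. GABAergic-like neurons, the type highest in Dlg2, were 45.7% and 59.6%. With equal weight for each sub-cluster Dlgap1 was at -0.11, Shank3 at -0.21, Dlg4 at -0.26 and Dlg2 at -0.05. None of the 6 was 1.2-fold or more away in either direction, where 20.5% of the 13573 genes with at least 200 UMIs were higher and 7.76% lower by that fold. The median of all genes was 0.08, and the median of the 6 genes was -0.14. Scaled instead by the median of the gene ratios, Dlgap1, Dlg4 and Shank3 passed 1.2-fold below the saline library, at -0.30, -0.29 and -0.27, where 12.3% of genes did.

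Within neuron types the values differed in size and, for Dlg2, in sign. Dlg2 was at -0.05 in GABAergic-like and 0.10 in thalamus-type neurons. Dlgap1 was at -0.17 in GABAergic-like, -0.15 in Oxt-rich, -0.14 in other Sim1-rich, -0.38 in other Slc17a6-rich and -0.21 in thalamus-type neurons, and each interval lay below 0. The make-up of the other Slc17a6-rich type differed between the libraries: the Samd3-led sub-cluster, with Dlgap1 at 470 CPM, held 100 of 340 saline nuclei and 235 of 478 VPA nuclei, and its part in the -0.38 was not tested. In the Oxt-rich type the Esr2-led sub-cluster, the higher one in Dlgap1, held 147 of 207 saline and 168 of 270 VPA nuclei, and this was not tested either. In the GABAergic-like type the Prr5l-led sub-cluster held 5 of 1594 saline and 214 of 4169 VPA nuclei. In other Sim1-rich neurons the sub-cluster led by AC122556.1 and Ebf1 held 100 of 869 saline and 376 of 1709 VPA nuclei. The part of both in the ratios of these types was not tested. Dlg4 ran from -0.47 (-0.70 to -0.24) in Oxt-rich neurons to -0.12 (-0.30 to 0.05) in thalamus-type neurons. It passed 1.2-fold lower in Oxt-rich, other Sim1-rich and other Slc17a6-rich neurons, where 9.62%, 8.29% and 11.5% of genes did. Other Slc17a6-rich neurons also had Shank3 and Dlgap1 past that fold. Of the 42 sub-clusters with enough nuclei in both libraries, Dlg4 was lower in 36, Shank2 and Shank3 in 32, Dlgap1 in 31, Shank1 in 24 and Dlg2 in 22. The higher Dlg2 over all neurons was therefore not found within the sub-clusters on average. All sub-clusters come from the same saline and VPA libraries, so these tallies do not replicate each other, and no share of all genes stands beside them. The equal-weight values rest on a wider set of 55 sub-clusters.

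In astrocyte-like nuclei of the VPA library Shank1 was at -0.81 (-1.18 to -0.46) and Dlg4 at -0.36 (-0.67 to -0.05), while Dlg2 was at 0.30 (0.18 to 0.41). The 6 neuron markers summed to 243 CPM (saline) and 357 CPM (VPA) in these nuclei, and their part in the Dlg2 ratio was not tested. The clusters behind this class differed: the Apoe-led astrocyte-like cluster, where Shank1 is high, held 49 saline nuclei with 429 CPM and 29 VPA nuclei with 203 CPM. In the larger astrocyte-like cluster the Shank1 levels were 48.1 CPM (saline) and 40.3 CPM (VPA). In progenitor-like nuclei Dlgap1 was at -0.25 (-0.34 to -0.16), where summed neuron markers were at 864.6 CPM (saline) and 587 CPM (VPA), whose part was not tested. Of the listed genes in neuron-like nuclei, 5 of 36 were 1.2-fold or more higher, led by Dynll1 (0.39), Insyn2b (0.32) and Cnksr2 (0.31). Lower by that fold were 4 of 36, led by Dlgap3 (-0.35), Synpo (-0.34) and Homer2 (-0.34). Summed astrocyte markers in neuron-like nuclei were between 112 and 227 CPM over the 5 libraries, and their part in these ratios was not tested. Neuron-like nuclei of the VPA library also had fewer UMIs, with a median of 6120 against 13180 in saline.

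The CNO contrast asks what activating oxytocin neurons shortly after birth changes in VPA-exposed mice, with 1 control library and 2 CNO libraries. The smallest exact permutation p in such a design is 0.333, so no test was made. In neuron-like nuclei Dlg2 was lower in both CNO libraries, with log2 ratios of -0.22 and -0.31 in CNO replicates 1 and 2, and Shank2 was at -0.08 and -0.33. Dlgap1 was higher in both, at 0.12 and 0.18. Thalamus-type neurons, high in Dlgap1 and low in Dlg2, were 6.91% of control neurons and 12.9% and 24.5% of CNO neurons. GABAergic-like neurons, the type highest in Dlg2, were 54.1% of control neurons and 51.2% and 34.2% of CNO neurons. With equal weight for each sub-cluster Dlg2 was at -0.19 and -0.09, and Dlgap1 at -0.07 and 0.06. Dlg4 was at 0.06 and -0.40, Shank1 at 0.04 and -0.14, and Shank3 at 0.18 and 0.02. Both ratios of a gene share the control library. The gap between the CNO libraries (CNO replicate 2 against 1) was -0.46 for Dlg4, -0.24 for Shank2, -0.18 for Shank1, -0.16 for Shank3, -0.09 for Dlg2 and 0.07 for Dlgap1. None of the 6 genes was 1.2-fold or more away in both CNO libraries, where 13.8% of the 14037 genes tested were higher and 2.22% lower. With scaling by the median of gene ratios, 1 gene was lower by that fold in both (Dlg2, at -0.31 and -0.35), as were 4.01% of all genes. In CNO replicate 2 taken alone, by CPM, Dlg2, Dlg4 and Shank2 were, as were 16.3% of all genes. Glial markers in neuron-like nuclei differed as well, with summed astrocyte markers at 120 CPM in the control and 181 and 227 CPM with CNO. Those of committed progenitors were at 70.3, 174 and 196 CPM, and the part of both in these ratios was not tested.

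The types did not move together. In thalamus-type neurons Shank2 was at 0.27 and 0.13 and Shank3 at 0.39 and 0.13 in CNO replicates 1 and 2. The Abhd12b-led sub-cluster, with Shank2 at 291 CPM and Shank3 at 181 CPM, held 17 of the 192 control nuclei of this type and 116 of 309 and 159 of 464 CNO nuclei. The other sub-clusters of the type had Shank2 at 140 and 167 CPM and Shank3 at 133 and 118 CPM, and the part of this make-up in the ratios was not tested. In other Sim1-rich neurons Shank2 was at -0.11 and -0.39, and in other Slc17a6-rich neurons Shank3 was at -0.21 and -0.62. The Sim2-led sub-cluster, with Shank2 at 327 CPM, held 106 of 465 control nuclei of the Sim1-rich type and 50 of 239 and 46 of 303 CNO nuclei. In the Slc17a6-rich type the Megf11-led sub-cluster, with Shank3 at 95.03 CPM, held 53 of 195 control nuclei and 172 of 380 and 12 of 146 CNO nuclei. The part of both in these ratios was not tested. In Oxt-rich neurons, the cells that OT-Cre targets, Dlg2 was at -0.01 and -0.07, Dlgap1 at 0.29 and 0.12, Shank1 at -0.07 and 0.00, Shank2 at -0.04 and -0.41, Shank3 at -0.28 and -0.18, and Dlg4 at 0.05 and -0.68. These rest on 122 control, 34 and 106 CNO nuclei. Their counting intervals for Dlgap1 lay above 0 in both libraries (0.18 to 0.40 and 0.02 to 0.22), and no other gene's intervals lay on 1 side of 0 in both. The Esr2-led sub-cluster, with Dlgap1 at 1105 CPM against 724 CPM in the Oxt-led one, held 64 of the control nuclei and 20 and 68 of the CNO nuclei, and the part of this make-up was not tested. Over the 17 sub-clusters with enough nuclei in all 3 libraries, Dlg2 was lower in both CNO libraries in 15 and Shank2 in 12. Dlgap1 was higher in both in 4 and lower in both in 6, with a median log2 ratio of -0.041. These tallies share the same 3 libraries and do not replicate each other. With equal weight for each of a wider set of 48 sub-clusters Shank3 was at 0.00 and -0.30. Of the listed genes, Homer2 (0.55 and 0.64) and Dynll1 (0.46 and 0.27) were higher by 1.2-fold in both CNO libraries and Insyn1 (-0.32 and -0.28) lower, 2 and 1 of 36. Dlg4 was lower in the VPA library and in CNO replicate 2, the libraries with the lowest median UMIs of each experiment, both over all deposited nuclei and among neuron-like nuclei, and the part of depth in this was not tested.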

How the data were processed

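Nuclear RNA of 5 pooled libraries was measured on the 10x Genomics platform. The authors deposited filtered matrices of UMI counts per gene and nucleus, made with Cell Ranger 7.0.1 on mm10 per the submitters' processing notes. Whether introns were counted and whether strand was used is not given in the sources used here.

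Nuclei below 1000 UMIs or above 5% mitochondrial UMIs were left out. The highest Scrublet scores were removed as doublets, with a target of 0.8% per 1000 nuclei. Nuclei tied at the cut-off score were removed too, so the share removed, 3.94% to 8.82% of a library, lay above the target. Nuclei of all libraries were clustered together (scanpy 1.11.5, 2000 variable genes, 30 principal components, Leiden, leidenalg 0.10.2), first into 37 clusters and then, for neurons, into 60. The 6 genes, all listed genes, Oxt and Avp were kept out of the clustering genes. Clusters were named from marker lists. Glial, vascular-like, ependymal-like and thalamus-type names needed markers at 3 times the mean of all clusters or sub-clusters. Neuron-like, GABAergic-like and other Slc17a6-rich names used lower cut-offs, with limits on markers of other classes or types. Oxt-rich sub-clusters had Sim1 at 1.5 times and Oxt at 5 times the mean. Names rebuilt in this way may differ from those of the study. Sub-clusters with no assigned type (71 to 302 nuclei per library) entered no comparison of neuron types, but they are part of the neuron-like class and of the sub-cluster values. Unnamed or mixed clusters entered no comparison. Unnamed nuclei numbered 341 to 985 per library. The largest unnamed cluster, with 1175 nuclei and Lhx9 and Foxp2 among its leading genes, met the cut-off for all 6 neuron markers. Its nuclei are missing from the neuron-like class and from the neuron sub-clusters.

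Counts were summed per library and class or type (at least 10 nuclei) and tested with edgeR 4.0.16 (R 4.3.3; TMM, filterByExpr, quasi-likelihood F-test, Benjamini-Hochberg over all genes, adjusted p below 0.05), all classes or all types in 1 fit with the library as a block. The block pairs classes that come from the same pooled animals. Replicates are libraries, so p-values measure the spread between 5 pooled preparations from different arms. The script was tested on simulated counts. DESeq2 1.42.0, total scaling, no filter, no block, each library left out, a minimum of 2000 UMIs per nucleus and doublets kept were the alternatives. The VPA and CNO contrasts used each experiment's own libraries, for genes with at least 200 UMIs, and counted genes past 1.2-fold. Intervals are exact at 95% and cover counting error only. Gene positions came from GENCODE vM21, whose GRCm38 assembly is mm10.

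The 6 genes are named throughout. Of the fixed lists (5 MAGUK relatives, 3 Dlgap relatives, 3 Homer proteins, 21 excitatory partners, 5 inhibitory scaffold genes), the 3 highest and 3 lowest past the threshold in a comparison were named. Some items that this rule or the sub-clusters would name are not reported here. Of 37 listed genes 36 passed the filter in each fit. The Dlgap relatives Dlgap2 to Dlgap4 were given by their count. Likeness named the 3 genes with the highest correlation. Genes, lists and members were chosen with earlier results of these data known.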

Additional observations from a re-analysis of the deposited data

Results flagged for a closer look

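In 4 cases a gene moved one way in every library of one cell group and the opposite way in another, with counting intervals that left out 0. None of these differences was tested. In the VPA contrast, Shank2 in vascular-like nuclei was at log2 2.25, on 4 UMIs in the saline library and 20 in the VPA library, and in astrocyte-like nuclei at -0.70, a difference of 2.95. In the vascular-like nuclei the summed ependymal markers were at 449.9 CPM (saline) and 967 CPM (VPA), and the neuron markers at 879 and 1234 CPM; their part was not tested. Dlg2 in the same contrast was at 0.10 in thalamus-type and -0.05 in GABAergic-like neurons, a difference of 0.157. The 3 thalamus-type sub-clusters, with Dlg2 at 2387, 3437 and 2001 CPM, held 232, 128 and 48 saline nuclei and 159, 129 and 4 VPA nuclei, and the part of this make-up was not tested. The GABAergic-like make-up differed as well. Its Prr5l-led sub-cluster held 5 of 1594 saline and 214 of 4169 VPA nuclei, and its part was not tested.

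In the CNO contrast, Shank2 was at 0.13 to 0.27 in thalamus-type neurons and at -0.39 to -0.11 in other Sim1-rich neurons of the CNO libraries, a difference of the means of 0.455. The thalamus-type sub-cluster with the highest Shank2 (291 CPM) held 17 of 192 control nuclei and 116 of 309 and 159 of 464 CNO nuclei of the type. The Sim2-led sub-cluster of other Sim1-rich neurons (Shank2 at 327 CPM) held 106 of 465 control nuclei and 50 of 239 and 46 of 303 CNO nuclei, and the part of both was not tested. Dlgap1 was at 0.12 to 0.18 in all neuron-like nuclei and at -1.20 to -0.57 in vascular-like nuclei, a difference of 1.04. The lower vascular values rest on 97 UMIs in the hM3 control library and 8 and 156 in CNO replicates 1 and 2. Neuron markers in the same nuclei summed to 1278 CPM in the control and 254.5 and 788 CPM in the CNO libraries, and their part was not tested. Over 17 neuron sub-clusters Dlgap1 was higher in both CNO libraries in 4 and lower in both in 6.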

How the results depend on the processing

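Of 546 values of the 6 genes in the class and type comparisons under alternatives, 511 kept their direction and their side of the threshold, 27 fell short of the threshold and 3 called values reversed. Another 5, called in neither setting, changed sign: Shank3 against vascular-like nuclei (-0.23 under total scaling, -0.013 with DESeq2), and in GABAergic-like neurons Shank1 (0.022) and Shank2 (0.0094) under total scaling and Shank2 (0.11) with the Oxt-richest sub-cluster alone. The reversed values were Shank2 in thalamus-type neurons (0.046) and in Oxt-rich neurons (-0.090), both with the Oxt-richest sub-cluster alone, and Dlg4 in thalamus-type neurons (-0.051) under total scaling. Of the counts of the 6 genes that were lower, that against progenitor-like nuclei ran from 0 to 1 with a library left out, and in GABAergic-like neurons from 0 to 1. The latter was also 0 under total scaling, without the filter, without the replicate block and with the Oxt-richest sub-cluster alone. In thalamus-type neurons the count was 0 without the replicate block and with that sub-cluster alone, and 1 to 2 with a library left out. In Oxt-rich neurons it was 1 without the replicate block and 2 to 4 with a library left out, and the count of higher genes was 0 with that sub-cluster alone. In the VPA contrast 3 genes were lower past 1.2-fold with scaling by the median ratio, and in the CNO contrast 1 was, or 3 without CNO replicate 1 (0 without CNO replicate 2). Causes were not tested.

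With equal weight for each sub-cluster Shank2 was 51.1% and Shank3 19.5% of neuronal Shank UMIs. Unthinned shares were 75.7% (Shank1), 82.7% (Shank2), 62.7% (Shank3), 99.8% (Dlg2), 68.9% (Dlg4) and 96.6% (Dlgap1). Listed genes higher and lower in thalamus-type neurons went from 17 and 10 to 7 and 20 under total scaling. Listed genes lower in neurons went from 5 to 8 against microglia-like and from 5 to 9 against vascular-like nuclei under total scaling, and to 3 in some other settings. In Oxt-rich neurons listed genes higher went from 1 to 0, 2 or 5. Over all genes, calls without the replicate block went from 1849 higher and 1868 lower to 728 and 746 (GABAergic-like), and from 1480 and 1394 to 726 and 743 (Oxt-rich). Under the same change listed genes lower went from 7 to 4 and from 15 to 7. No paired analysis was possible because each arm of the VPA and CNO contrasts held different animals, with 1 control library. Depth limits the oligodendrocyte-like, microglia-like, vascular-like, ependymal-like and committed progenitor-like values, where a Shank gene rests on 0 to 4 UMIs in some libraries.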
